A study of Homo sapiens with 8 samples.

Results

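The genes described here are MYC, its partner MAX, 4 further members of the same network of dimerizing transcription factors (MGA, MNT, MXI1 and MLX) and FBXW7, which marks MYC protein for destruction. They were chosen by name, as the rows of the guide count table assigned to these 7 genes, out of 18053 gene names in the table and 17761 genes that could be tested. The 7 genes were targeted by 28 guides, 4 for each gene, of which 26 passed the filter on low counts. Each gene was followed across the 4 groups of the screen, with 2 libraries per group.

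The cells were PC9, an EGFR-mutant non-small cell lung cancer line whose growth depends on the EGFR kinase, made to express the Cas9 nuclease. They carried a pool of guide RNAs, the TKOv3 library, that covers most genes, so that nearly every cell lost 1 gene and the reads of a guide stand in for the cells that carry that knockout. The groups were cells treated for 72 h with the EGFR inhibitor erlotinib at 10 µM, cells treated for 72 h with the EGFR inhibitor osimertinib at 0.1 µM, cells kept for 72 h in DMSO (untreated) and cells taken at 0 h, just before drug addition (T0). All 4 groups shared Cas9, the library and puromycin selection of infected cells, and per the methods only live cells were collected and the untreated culture was passaged once after drug addition. The doses of the 2 inhibitors differed, the line is a single cell line in culture, and survival of a knockout reports abundance, so slower growth and more death of the same cells cannot be told apart here.

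MYC binds DNA as a heterodimer with MAX and activates genes for ribosome production, nucleotide synthesis and cell cycle entry. MNT, MXI1 and the MXD proteins compete for MAX and recruit the SIN3-HDAC corepressor to the same sites, and MGA, a very large protein with a second DNA-binding domain of the T-box type, pairs with MAX inside a Polycomb repressor complex (PRC1.6). MLX does not bind MYC but pairs with the nutrient sensors MondoA and ChREBP, and also with some MXD proteins and MNT. Downstream of EGFR, the kinase ERK phosphorylates MYC, GSK3 adds a second phosphate next to it, and FBXW7, the substrate receptor of an SCF ubiquitin ligase, recognizes the doubly marked protein. FBXW7 also targets cyclin E, JUN, NOTCH1, MCL1 and mTOR and is a frequent tumor suppressor.

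Libraries held between 32096281 and 39200466 reads, with a median of 445 to 549 reads per guide. Within each group the counts of both libraries differed by 2.71 to 5.18 times the sampling variance (chi-square per degree of freedom), so no library was a copy of its partner. A gene value is the median log2 fold change (L2FC) of its guides minus the median of 138 non-targeting guides, given ± the SD between its guides with n guides. A gene is called where its empirical p against draws of non-targeting guides, adjusted over all genes by the Benjamini-Hochberg procedure, was under 0.05, and this p covers the spread between non-targeting guides and not the spread between cultures. An adjusted p of a gene is of this empirical test unless limma is named, and that of a single guide is of the quasi-likelihood F-test in edgeR. Knocking out EGFR, the target of both drugs, gave an L2FC of 0.52 ± 0.16 under erlotinib and 0.57 ± 0.20 under osimertinib relative to untreated, and of -0.88 ± 0.24 in untreated relative to T0 (n = 4 guides each). Most genes lay below non-targeting guides after T0: the median of all genes was -0.14 under erlotinib, -0.14 under osimertinib and -0.17 in untreated relative to T0. Most genes were thus called lower in untreated relative to T0, while the medians relative to untreated were 0.00 under erlotinib and 0.01 under osimertinib.

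Both drugs were set against the same 2 untreated libraries, and all 3 groups at 72 h against the same 2 T0 libraries, so the comparisons are not independent of each other. Relative to untreated, FBXW7 was the only one of the 7 genes called higher under either drug, and MGA was the only one called lower. Under erlotinib, 1 of the 7 was called higher and 1 lower, where 6.26% of all genes were called higher and 4.59% lower. Under osimertinib, 1 of the 7 was called higher and 1 lower, where 4.58% of all genes were called higher and 4.71% lower. In untreated relative to T0, 4 of the 7 were called lower and 0 higher, beside 66.1% of all genes lower and 0.158% higher. The 4 called lower, MYC, MAX, MXI1 and MLX, are a share near that of all genes, and of them only MYC lay below the 28.1st percentile.

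**Figure D1:**
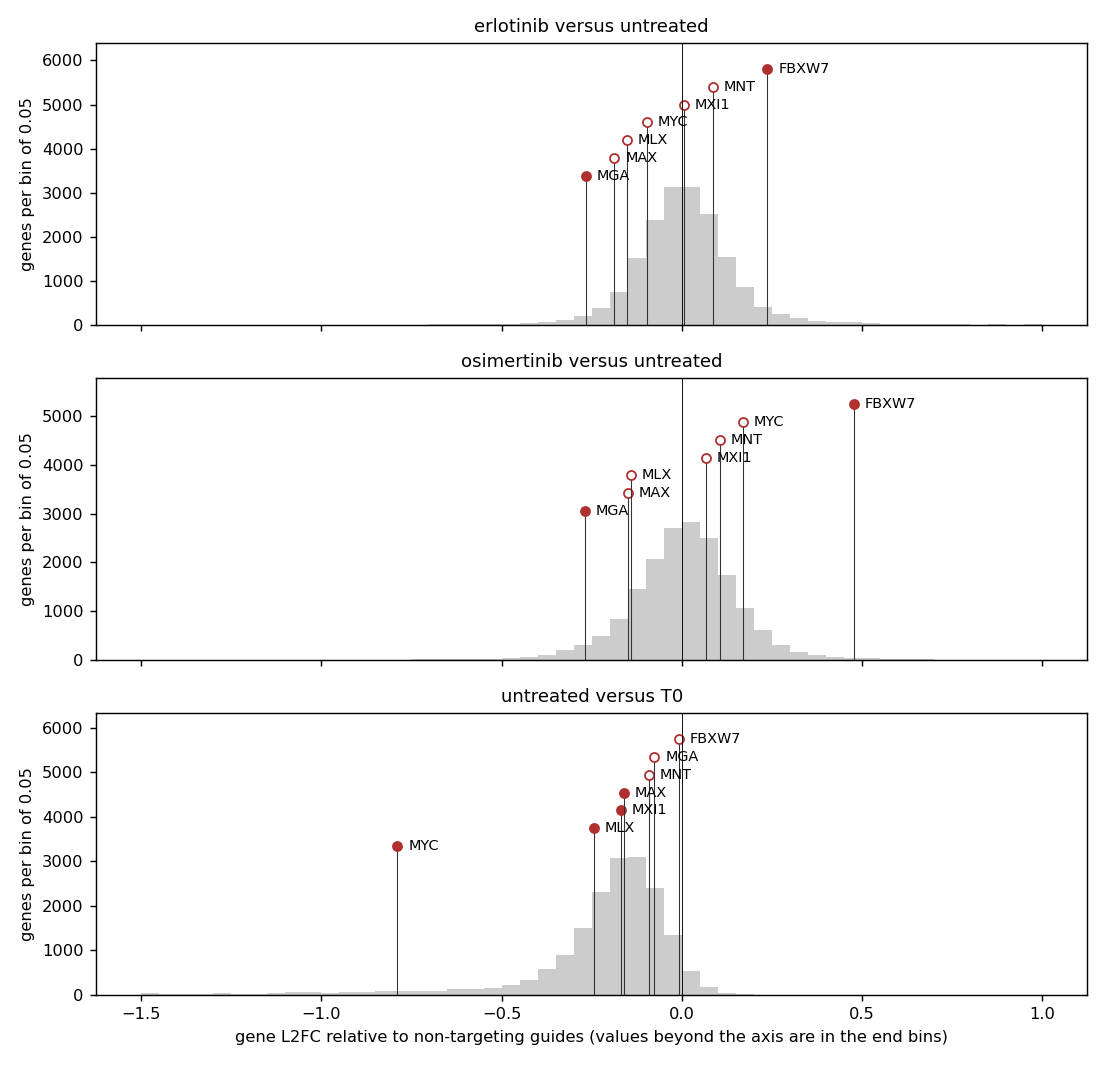
Gene L2FC relative to non-targeting guides (x axis, log2) for all genes (grey bars, number of genes per bin of 0.05) and for the 7 network genes (circles, filled where called). From top to bottom the panels show erlotinib versus untreated, osimertinib versus untreated and untreated versus T0, with FBXW7 at 0.24, 0.48 and -0.01, MGA at -0.27, -0.27 and -0.08, and MYC at -0.10, 0.17 and -0.79.

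MYC was the only one of the 7 genes whose L2FC without drug was as low as the median core essential gene. Its log2 abundance relative to T0, as the median of its guides, was -0.96 and -0.74 in the erlotinib libraries, -0.68 and -0.75 in the osimertinib libraries, -0.76 and -0.76 in the untreated libraries, and -0.09 and 0.09 in the T0 libraries. All 6 libraries taken at 72 h lay below both T0 libraries, the erlotinib libraries spanned the untreated ones, and osimertinib replicate 2 lay next to them. Knocking out MYC gave an L2FC of -0.79 ± 0.24 in untreated relative to T0 (n = 3 guides, adjusted p = 0.000337), which placed it at the 3.45th percentile of all genes. For comparison, the median of 133 core essential genes of the ribosome, proteasome, RNA polymerases and tRNA synthetases was -0.77. With guides against olfactory receptor genes in place of non-targeting guides, MYC was the 1 gene of the 7 still called lower (-0.67, adjusted p = 0.00161), and with all targeting guides as the reference it was not called (-0.61, adjusted p = 0.0964).

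Relative to T0, MYC was lower under erlotinib (-0.86 ± 0.39, adjusted p = 0.000542) and under osimertinib (-0.89 ± 0.17, adjusted p = 0.000572). Neither call was kept with all targeting guides as the reference (-0.72 under erlotinib, adjusted p = 0.0615, and -0.74 under osimertinib, adjusted p = 0.076). Relative to untreated, neither drug moved MYC past the threshold, with -0.10 ± 0.15 under erlotinib (adjusted p = 0.447) and 0.17 ± 0.28 under osimertinib (adjusted p = 0.295). The guides disagreed under osimertinib, at 0.19, 0.17 and -0.31 relative to untreated. Growth-adjusted values subtract from the change since T0 the part that follows the loss without drug, scaled by the ratio measured on core essential genes. That ratio was 1.012 for osimertinib, so its growth-adjusted values nearly repeat those relative to untreated. For MYC the growth-adjusted value was -0.26 ± 0.20 under erlotinib (adjusted p = 0.00744) and 0.18 ± 0.28 under osimertinib (adjusted p = 0.267). The erlotinib call was lost without erlotinib replicate 1 (-0.20, adjusted p = 0.0998) and without untreated replicate 2 (-0.24, adjusted p = 0.129), after subtracting the 20 nearest genes (-0.18, adjusted p = 0.162), and with all targeting guides (adjusted p = 0.349) or olfactory receptor guides (adjusted p = 0.22) as the reference.

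MYC guides were already rare when the drugs were added. At T0 the 4 guides had 159 and 181 reads (guide 1), 64 and 82 reads (guide 2), 228 and 275 reads (guide 3) and 30 and 26 reads (guide 4, which the filter removed). The median MYC guide stood at 3.19 CPM (reads scaled to library size) at T0, the 0.73rd percentile of all genes, where the median gene stood at 14.1 and the median core essential gene at 8.77. EGFR was likewise low, at 6.42 CPM and the 3.50th percentile. The infected cells had been under selection and recovery for days by then, and the guide pool before infection was not analysed here, so early loss of cells and uneven representation in the pool cannot be told apart. A guide with so few reads has a wide error: guide 2 of MYC moved by -0.61 ± 0.32 (SE) in untreated relative to T0 on the scale of the guide test and did not pass it, with a quasi-likelihood F-test adjusted p of 0.29, while guide 1 did, at -0.91 ± 0.24 (adjusted p = 0.0068).

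**Figure D2:**
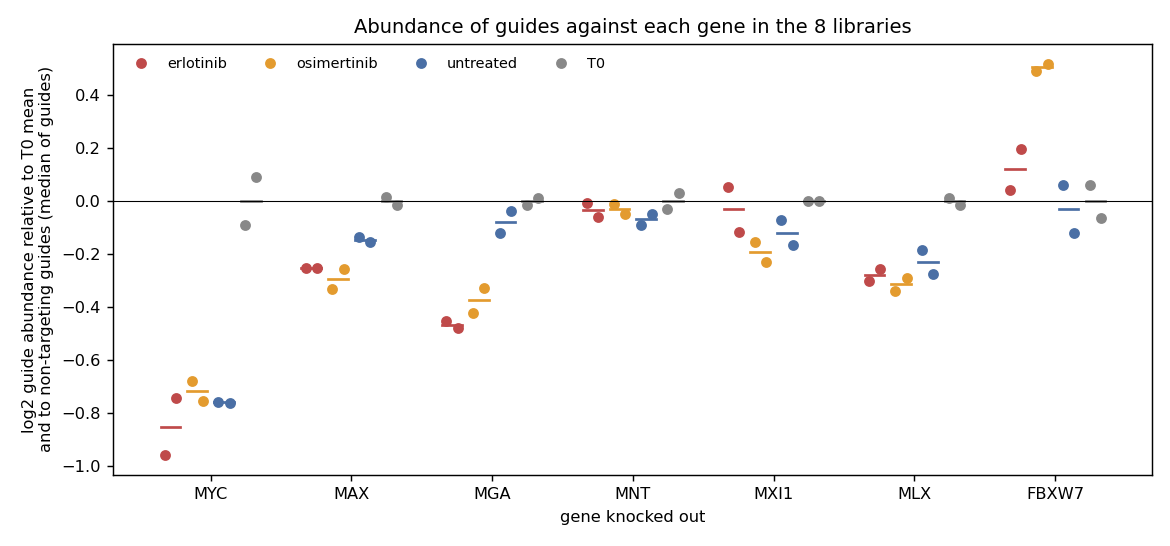
Log2 abundance of guides against each of the 7 genes (y axis, scaled to non-targeting guides and to the mean at T0, median of the gene's guides) in the 8 libraries. Each point is a library and each short line the mean of the 2 libraries of a group. The 2 osimertinib points of FBXW7, at 0.49 and 0.52, lie above its other 6 libraries, and the erlotinib and osimertinib points of MGA, from -0.48 to -0.33, lie below its untreated libraries.

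MAX, without which MYC cannot bind DNA, did not follow MYC. Its log2 abundance was -0.25 and -0.25 under erlotinib, -0.33 and -0.26 under osimertinib, -0.14 and -0.15 in untreated, and 0.01 and -0.01 at T0. Every library of either drug lay below both untreated libraries. In untreated relative to T0, knocking out MAX gave -0.16 ± 0.12 (n = 4 guides, adjusted p = 0.00865), against a median of -0.17 over all genes, which left MAX at the 52.9th percentile and MYC at the 3.45th. Relative to untreated, MAX was at -0.19 ± 0.10 under erlotinib (adjusted p = 0.0636) and -0.15 ± 0.05 under osimertinib (adjusted p = 0.213), and all 4 guides were below 0 under both drugs. The erlotinib value was called lower with the mean over guides (-0.19, adjusted p = 0.0236) and with no filter on low guides (-0.19, adjusted p = 0.0462), but not in the other settings. MAX guides had between 351 and 770 reads at T0, more than any MYC guide.

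MGA, the MAX partner of the PRC1.6 complex, was lower under both drugs than in untreated. Its log2 abundance was -0.45 and -0.48 in the erlotinib libraries, -0.42 and -0.33 in the osimertinib libraries, -0.12 and -0.04 in the untreated libraries, and -0.01 and 0.01 at T0. Each library of either drug lay below each untreated library. Knocking out MGA gave an L2FC relative to untreated of -0.27 ± 0.18 under erlotinib (n = 4 guides, adjusted p = 0.00509, 2.22nd percentile) and -0.27 ± 0.16 under osimertinib (adjusted p = 0.0196, 3.68th percentile). Without drug MGA was not called, at -0.08 ± 0.18 relative to T0 (adjusted p = 0.22), but this depended on the setting: it was called lower with the mean over guides (-0.16, adjusted p = 0.0139) and higher after subtracting the 20 nearest genes (0.20, adjusted p = 0.00656). Growth-adjusted values were -0.31 ± 0.17 under erlotinib (adjusted p = 0.00286) and -0.27 ± 0.16 under osimertinib (adjusted p = 0.0235). The osimertinib value nearly repeats the comparison with untreated and is no separate check.

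The MGA guides were not alike. Guide 3 had 447 and 490 reads under erlotinib, 584 and 627 reads under osimertinib, 700 and 767 in untreated, and 689 and 755 at T0, and it was the guide that passed its own test, at -0.49 ± 0.11 (SE) for erlotinib relative to untreated (quasi-likelihood F-test, adjusted p = 0.00281). Guide 4 had 475 and 418 reads under erlotinib, 504 and 604 reads under osimertinib, 478 and 585 in untreated, and 496 and 532 at T0. Guide 4 therefore stayed near its starting level, at -0.09 and 0.02 relative to untreated under erlotinib and osimertinib, and guides 1 and 2 lay between -0.35 and -0.19. Averaging guides in place of their median gave -0.21 under osimertinib, which was not called (adjusted p = 0.136). The calls of MGA against untreated were also lost with either of the other reference sets of guides and without untreated replicate 2, at -0.23 under erlotinib (adjusted p = 0.091) and -0.23 under osimertinib (adjusted p = 0.18). Leaving out erlotinib replicate 2 gave -0.23 under erlotinib (adjusted p = 0.0869), and leaving out osimertinib replicate 1 gave -0.22 under osimertinib (adjusted p = 0.155).

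**Figure D3:**
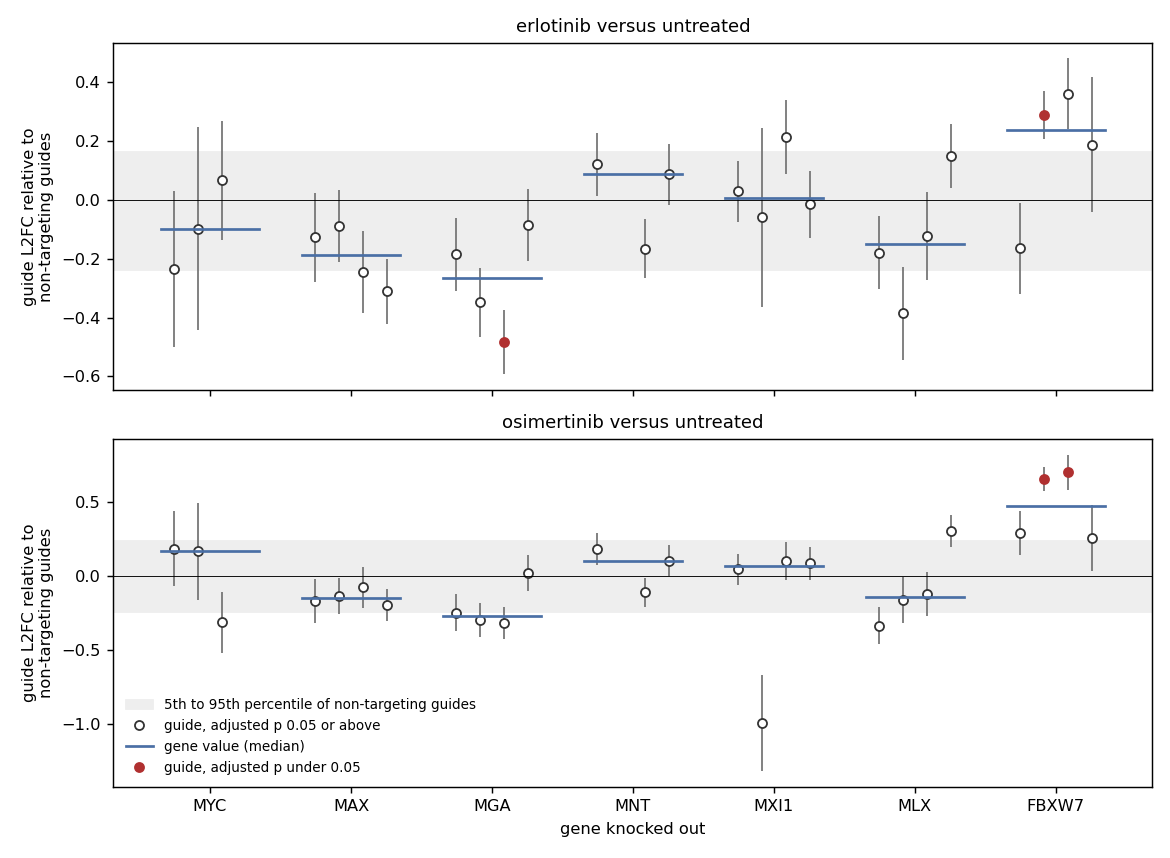
L2FC of every guide that passed the filter (y axis, relative to the median of non-targeting guides, ± SE) for erlotinib versus untreated (top) and osimertinib versus untreated (bottom). Filled circles are guides whose quasi-likelihood F-test had an adjusted p under 0.05, blue lines are gene values, and the grey band spans the 5th to 95th percentile of non-targeting guides. Guides 2 and 3 of FBXW7 lie at 0.66 and 0.70 under osimertinib, and guide 3 of MGA at -0.48 under erlotinib.

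The other repressors, MNT and MXI1, and MLX were not called relative to untreated. MNT, a MAX-bound repressor present in most cell types, had a log2 abundance of -0.01 and -0.06 under erlotinib, -0.01 and -0.05 under osimertinib, -0.09 and -0.05 in untreated, and -0.03 and 0.03 at T0. The groups lay within a narrow range, with erlotinib overlapping each other group and untreated below T0. In the main settings no comparison called MNT, whose L2FC relative to untreated was 0.09 ± 0.16 under erlotinib (adjusted p = 0.495) and 0.11 ± 0.15 under osimertinib (n = 3 guides, adjusted p = 0.442). After subtracting the 20 nearest genes, MNT was called higher for erlotinib relative to T0 (0.19, adjusted p = 0.048). The remaining MNT guide, with 8 and 5 reads at T0, was removed by the filter.

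MXI1, a MAX partner of the MXD type, had a log2 abundance of 0.05 and -0.12 under erlotinib, -0.16 and -0.23 under osimertinib, -0.07 and -0.17 in untreated, and 0.00 and 0.00 at T0. Untreated overlapped with both drugs, and both osimertinib libraries were below both erlotinib libraries. Its L2FC lay at 0.01 ± 0.12 under erlotinib (adjusted p = 0.956) and 0.07 ± 0.54 under osimertinib (adjusted p = 0.551) relative to untreated, and at -0.17 ± 0.29 in untreated relative to T0 (n = 4 guides, adjusted p = 0.00526), the 50th percentile of all genes. The wide SD under osimertinib came from guide 2, with 67 and 56 reads under erlotinib, 39 and 35 under osimertinib, 82 and 61 in untreated, and 53 and 54 at T0. This guide, at -0.99 relative to untreated and non-targeting guides under osimertinib, did not pass its own test (quasi-likelihood F-test, adjusted p = 0.0568), and the other 3 guides of MXI1 lay between 0.05 and 0.10.

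MLX had a log2 abundance of -0.30 and -0.25 under erlotinib, -0.34 and -0.29 under osimertinib, -0.19 and -0.28 in untreated, and 0.01 and -0.01 at T0, with erlotinib and untreated overlapping. Its L2FC relative to untreated was -0.15 ± 0.22 under erlotinib (adjusted p = 0.125) and -0.14 ± 0.27 under osimertinib (adjusted p = 0.237), and in untreated relative to T0 it was -0.24 ± 0.18 (n = 4 guides, adjusted p = 0.000337), the 28.1st percentile. Guide 4 of MLX ran against the other 3, at 0.15 under erlotinib and 0.31 under osimertinib. The 20 genes nearest to MLX on its chromosome had medians of -0.11 under erlotinib and -0.13 under osimertinib relative to untreated, close to the values of MLX itself. Of the network genes, MAX also had low neighbors, at -0.11 under erlotinib and -0.08 under osimertinib, while the neighbors of MGA were at -0.01 and -0.0045 and those of FBXW7 at -0.01 and -0.01. The neighbors of MYC were at -0.04 under erlotinib and -0.11 under osimertinib. Subtracting the neighbors left -0.08 under erlotinib and -0.07 under osimertinib for MAX, -0.04 and -0.01 for MLX, and -0.06 and 0.28 for MYC.

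FBXW7 knockout cells were more common under EGFR inhibition than in untreated, with the larger difference under osimertinib. The log2 abundance of FBXW7 guides was 0.04 and 0.20 in the erlotinib libraries, 0.49 and 0.52 in the osimertinib libraries, 0.06 and -0.12 in the untreated libraries, and 0.06 and -0.06 in the T0 libraries. Both osimertinib libraries were higher than all 6 others, and the erlotinib libraries overlapped with untreated and T0. Knocking out FBXW7 gave an L2FC relative to untreated of 0.48 ± 0.24 under osimertinib (n = 4 guides, adjusted p = 0.00464, 99.5th percentile) and 0.24 ± 0.23 under erlotinib (adjusted p = 0.0117, 95.4th percentile). The erlotinib call was lost without erlotinib replicate 2 (0.22, adjusted p = 0.111) and without untreated replicate 2 (0.11, adjusted p = 0.471). It was also lost with the mean over guides (0.17, adjusted p = 0.0616), limma (adjusted p = 0.114), all targeting guides (adjusted p = 0.29) and olfactory receptor guides (adjusted p = 0.0776), and was kept in 9 of 15 alternative settings. Under osimertinib the values without 1 library each lay between 0.33 and 0.67, and the call was kept in each of 15 alternative settings, the other reference guides and limma included.

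Without drug FBXW7 was not called. It was at -0.01 ± 0.25 in untreated relative to T0 (adjusted p = 0.903), the 94.8th percentile, since most genes lay below non-targeting guides. Under osimertinib FBXW7 was higher than at T0 (0.54 ± 0.39, adjusted p = 0.000572), at the 99.93rd percentile of all genes. Under erlotinib the value relative to T0 was 0.13 ± 0.27 (adjusted p = 0.0649), at the 99.11th percentile. It was called higher with the lowest 10% of guides left out (0.22, adjusted p = 0.003) and with the mean over guides (0.14, adjusted p = 0.0376). It was also called after subtracting the 20 nearest genes (0.17, adjusted p = 0.0377), but not in the other settings that kept all libraries. Relative to T0 under osimertinib, 1 of the 7 genes was called higher and 5 lower, beside 1.5% of all genes higher and 44.6% lower. Under erlotinib 0 were called higher and 4 lower, beside 0.681% and 51% of all genes. The genes called lower were MYC, MAX, MGA and MLX under both drugs, and MXI1 under osimertinib (-0.18 ± 0.28, adjusted p = 0.0238).

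Guides 2 and 3 of FBXW7 had the highest values under osimertinib. Guide 2 had 1137 and 1185 reads under erlotinib, 1681 and 1775 under osimertinib, 1043 and 1086 in untreated, and 995 and 1119 at T0. Guide 3 had 593 and 623 reads under erlotinib, 1022 and 744 under osimertinib, 545 and 513 in untreated, and 484 and 442 at T0. For osimertinib relative to untreated, guide 2 rose by 0.65 ± 0.08 (SE, quasi-likelihood F-test, adjusted p = 8.03e-09) and guide 3 by 0.70 ± 0.12 (adjusted p = 2.4e-05). For erlotinib relative to T0, guide 2 (0.36 ± 0.08, adjusted p = 0.00113) and guide 3 (0.62 ± 0.12, adjusted p = 0.000127) also passed the F-test. Relative to non-targeting guides these values were 0.21 and 0.47.

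Guide 1 of FBXW7 differed between the untreated libraries. It had 251 and 302 reads under erlotinib, 414 and 459 under osimertinib, 405 and 285 in untreated, and 283 and 283 at T0, so that untreated replicate 1 alone reached the osimertinib level. It passed the F-test relative to T0 under osimertinib (0.65 ± 0.15, adjusted p = 0.00114) but not relative to untreated (0.29 ± 0.15, adjusted p = 0.28). Guide 4 was sparse, with 119 and 122 reads under erlotinib, 129 and 162 under osimertinib, 133 and 103 in untreated, and 146 and 139 at T0. It lay at 0.26 for osimertinib relative to untreated and at -0.10 relative to T0, so it was the guide of FBXW7 with no gain over the start.

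**Figure D4:**
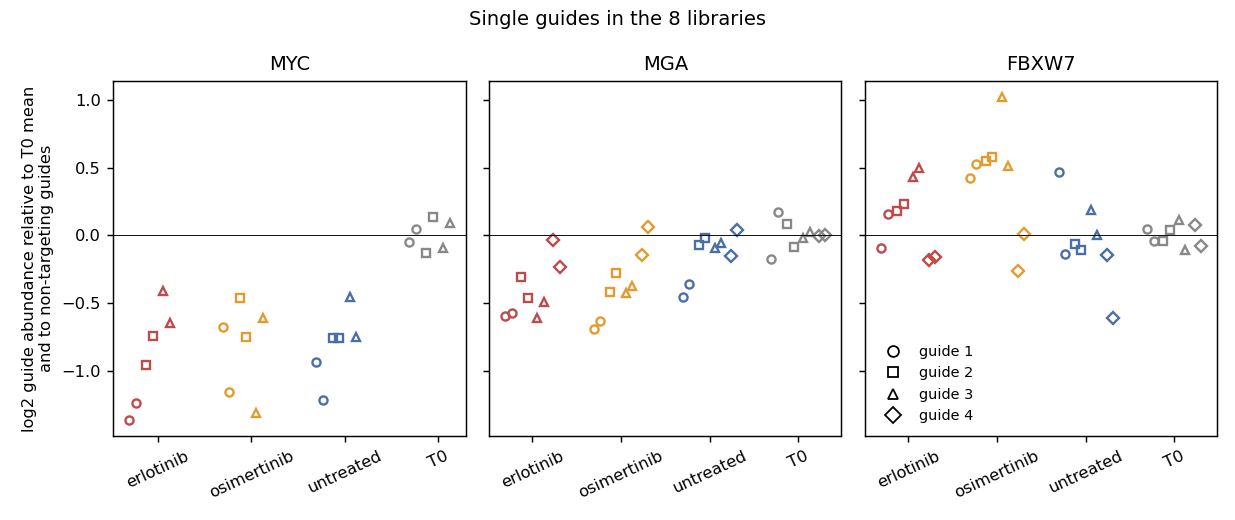
Log2 abundance of single guides against MYC, MGA and FBXW7 (y axis, scaled to non-targeting guides and to each guide's mean at T0) in the 8 libraries, with a symbol for each guide and 2 points per group. FBXW7 guide 3 reaches 1.02 in osimertinib replicate 1, MGA guide 4 stays between -0.23 and 0.06, and MYC guides lie between -1.36 and -0.42 in all libraries at 72 h.

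Each of the 26 guides was also tested alone. For erlotinib relative to untreated 2 passed, guide 3 of MGA and guide 2 of FBXW7, beside 2.81% of all targeting guides. For osimertinib relative to untreated 2 passed, both of FBXW7, beside 4.74% of targeting guides. In untreated relative to T0 it was 1 guide, of MYC, beside 7.12%. Relative to T0 it was 6 guides under erlotinib, beside 6.76%, and 7 under osimertinib, beside 13.6%. These tests run on scaled counts before the non-targeting median is subtracted, and that median was 0.15, 0.15 and 0.18 for erlotinib, osimertinib and untreated relative to T0, so guides that did not change relative to non-targeting guides can pass as higher. For guide 1 of MNT, a pass under osimertinib relative to T0 (0.32 ± 0.11, adjusted p = 0.0305) was a value of 0.17 relative to non-targeting guides.

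Erlotinib and osimertinib were compared directly at their different doses. The L2FC of FBXW7 was -0.36 ± 0.17 for erlotinib relative to osimertinib (n = 4 guides, adjusted p = 0.00871), the 17th lowest value of all genes, and all 4 guides were below 0, from -0.46 to -0.07. FBXW7 was the 1 gene of the 7 called lower, with 0 called higher, beside 1.05% and 2.55% of all genes. Guide 2 passed its own test at -0.37 ± 0.08 (SE, quasi-likelihood F-test, adjusted p = 0.0131), the 1 pass among the 26 guides, beside 0.329% of targeting guides. Without osimertinib replicate 1 the gene value was -0.28 and not called (adjusted p = 0.211), and limma on gene levels gave -0.29 (adjusted p = 0.0774). MYC came next, at -0.27 ± 0.42 (adjusted p = 0.0668), with guides at -0.43, -0.27 and 0.38. After subtracting the 20 nearest genes, among other settings, MYC was called (-0.36, adjusted p = 0.00925). The other 5 genes lay between -0.08 and 0.04 with adjusted p of 0.49 or more, and MGA, at -0.08 ± 0.10, had guides from -0.17 to 0.06.

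Growth-adjusted values gave 1 gene higher and 4 lower under erlotinib, beside 3.68% and 9.27% of all genes, and 1 higher and 1 lower under osimertinib, beside 4.64% and 4.43%. FBXW7 was the gene called higher under erlotinib (0.19 ± 0.22, adjusted p = 0.0329) and under osimertinib (0.48 ± 0.23, adjusted p = 0.00315). With a factor of 1.012, the osimertinib values restate those relative to untreated and add no separate check. Under erlotinib MYC and MGA were joined by MAX (-0.19 ± 0.10, adjusted p = 0.0338) and MLX (-0.19 ± 0.21, adjusted p = 0.0404). With olfactory receptor guides as the reference, MGA under erlotinib and FBXW7 under osimertinib were the calls that were kept.

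Of 8 partners and regulators of FBXW7 in its ligase, 3 were called higher and 0 lower under erlotinib relative to untreated, and 2 higher and 1 lower under osimertinib, beside 6.26% and 4.59% of all genes under erlotinib and 4.58% and 4.71% under osimertinib. Higher under both drugs were CUL1, the scaffold of SCF ligases (0.42 ± 0.14 under erlotinib and 0.29 ± 0.19 under osimertinib), and RBX1, its RING subunit (0.31 ± 0.21 and 0.43 ± 0.31). SKP1, the adaptor that holds F-box proteins, was called higher under erlotinib (0.34 ± 0.10) and not under osimertinib (0.13 ± 0.09, adjusted p = 0.378). The 1 lower under osimertinib was GSK3B (-0.23 ± 0.10), close to the threshold (adjusted p = 0.0495). SKP1 and GSK3B are named after their values were seen. CUL1 and RBX1 fell in untreated relative to T0, by 0.74 and 1.07 on the log2 scale, and SKP1 fell by 0.49, whereas FBXW7 was at -0.01. After growth adjustment under erlotinib SKP1 was the 1 of the 8 still called (0.24 ± 0.13, adjusted p = 0.0225), with CUL1 at 0.13 (adjusted p = 0.171) and RBX1 at 0.08 (adjusted p = 0.334). Under osimertinib, where the adjustment changes little, CUL1 (0.31, adjusted p = 0.0398) and RBX1 (0.44, adjusted p = 0.00315) were still called higher. GSK3B was then not called (-0.23, adjusted p = 0.0522). After growth adjustment 3.68% of all genes were called higher under erlotinib and 4.64% under osimertinib. Of 10 other ligases and deubiquitinases of MYC, 2 were called higher and 1 lower under erlotinib relative to untreated, and 1 higher and 1 lower under osimertinib. HUWE1, a large ligase with MYC and MCL1 among its substrates, was higher (0.46 ± 0.13 under erlotinib and 0.38 ± 0.08 under osimertinib), and USP22, the deubiquitinase of the SAGA coactivator, was lower (-0.36 ± 0.18 and -0.37 ± 0.05).

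Of 15 substrates of FBXW7 other than MYC, 1 was called higher and 1 lower under erlotinib, and 0 higher and 3 lower under osimertinib, with list medians of 0.01 and -0.02. The shares of all genes were 6.26% higher and 4.59% lower under erlotinib, and 4.58% and 4.71% under osimertinib. Knocking out MCL1, the anti-apoptotic BCL2 relative, gave -0.42 ± 0.72 under erlotinib and -0.51 ± 0.52 under osimertinib (n = 3 guides). MTOR, the growth kinase, gave 0.57 ± 0.06 under erlotinib, 0.16 ± 0.13 under osimertinib (adjusted p = 0.196) and -1.06 ± 0.24 in untreated relative to T0. So the 2 named substrates lay on opposite sides of 0 under erlotinib.

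Most coactivators and activated genes of MYC were lower after growth without drug. All 13 tested coactivators and partners of MYC were called lower in untreated relative to T0, with a median of -0.71, and of 18 tested genes activated by MYC, 17 were called lower, with a median of -0.54, where 66.1% of all genes were called lower, with a median of -0.17. Lower also against all targeting guides were, among others, CDK9, the elongation kinase (-1.18 ± 0.29), RUVBL2, a chromatin remodeling ATPase (-1.11 ± 0.18), TRRAP, the scaffold of histone acetyltransferase complexes (-0.81 ± 0.65), GNL3 and FBL, nucleolar factors (-1.37 ± 0.16 and -1.27 ± 0.12), and PPAT, the first enzyme of purine synthesis (-1.10 ± 0.51). These lists hold genes that most dividing cells need, with or without MYC. Relative to untreated, 6 of the 13 coactivators were called higher and 0 lower under erlotinib, and 1 higher and 1 lower under osimertinib, beside 6.26% and 4.59% of all genes under erlotinib and 4.58% and 4.71% under osimertinib. After growth adjustment the numbers under erlotinib were 2 higher and 2 lower for the coactivators, and 3 higher and 1 lower for the activated genes. The shares of all genes after that adjustment were 3.68% higher and 9.27% lower. Of the activated genes, 5 were called higher and 0 lower under erlotinib and 3 higher and 2 lower under osimertinib, PAICS and PPAT among the higher at 0.67 ± 0.31 and 0.66 ± 0.53 under erlotinib and 0.62 ± 0.33 and 0.44 ± 0.48 under osimertinib. GNL3 was at 0.52 ± 0.13 under erlotinib and 0.30 ± 0.06 under osimertinib. MYC itself, at -0.10 under erlotinib, was not among the genes that rose, while the 133 core essential genes had a median of 0.13 under erlotinib and 0.01 under osimertinib.

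**Figure D5:**
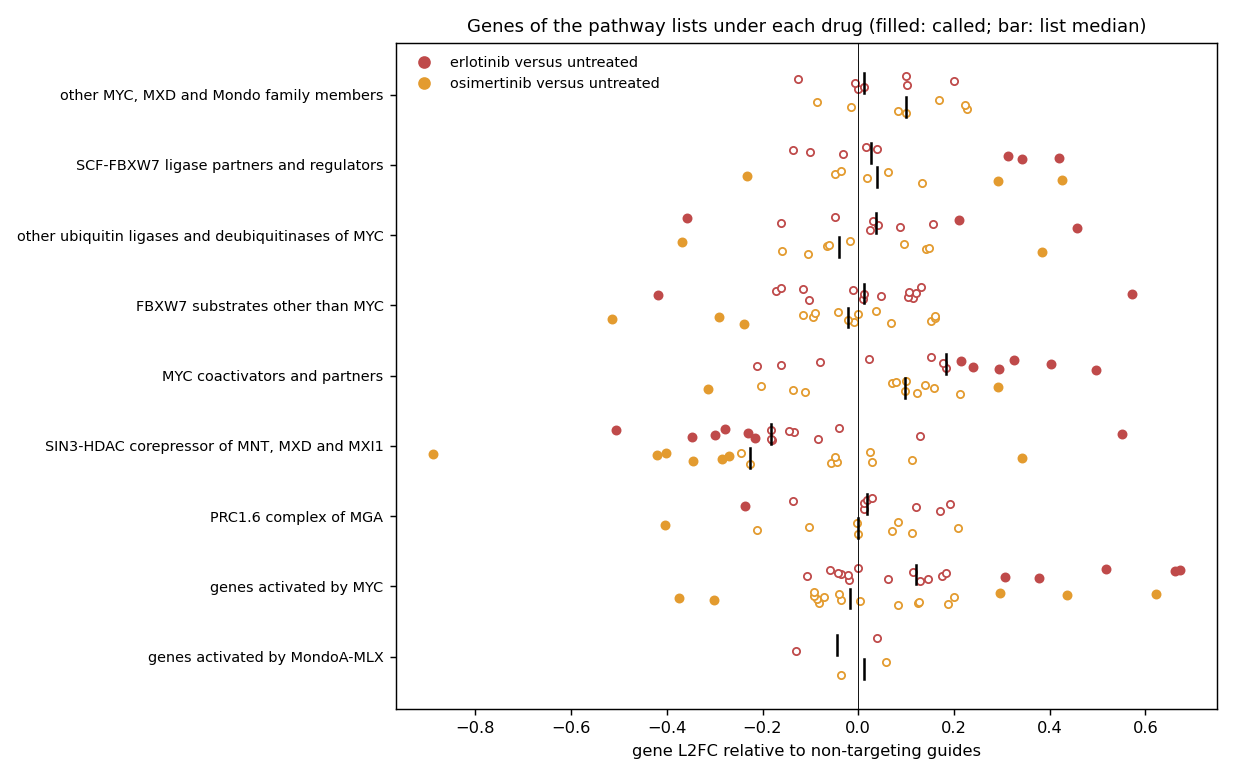
Gene L2FC relative to non-targeting guides (x axis, log2) for genes of 9 pathway lists under erlotinib versus untreated (red, upper row of each list) and osimertinib versus untreated (orange, lower row). Filled circles are called genes and black bars list medians. The SIN3-HDAC list has medians of -0.18 and -0.23, and its genes include BRMS1 at -0.51 and -0.89 and RBBP4 at 0.55 and 0.34.

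MNT, MXI1 and the MXD proteins silence genes through the SIN3-HDAC corepressor. Of its 15 listed genes, 6 were called lower and 1 higher under erlotinib and 6 lower and 1 higher under osimertinib relative to untreated. Of all genes, 4.59% were called lower and 6.26% higher under erlotinib, and 4.71% and 4.58% under osimertinib. SIN3A, SIN3B and HDAC1, named after their values were seen, were not called under either drug relative to untreated. HDAC2 (-0.22 ± 0.26) and RBBP7 (-0.23 ± 0.09), also named after their values were seen, were called lower under erlotinib and not under osimertinib. The list medians were -0.18 and -0.23, where the medians of all genes were 0.00 and 0.01. BRMS1, a subunit of this complex, had the lowest value of the list under both drugs (-0.51 ± 0.12 under erlotinib and -0.89 ± 0.27 under osimertinib, n = 3 guides), although it was not called without drug (-0.11 ± 0.24, adjusted p = 0.13). SAP18, a smaller subunit, was at -0.35 ± 0.24 under erlotinib and -0.35 ± 0.52 under osimertinib, and SUDS3 and ING1, named after their values were seen, were also called lower under both. RBBP4, a histone chaperone shared with many other complexes, ran the other way (0.55 ± 0.24 and 0.34 ± 0.18). It fell in untreated relative to T0 by 0.76 on the log2 scale, and SAP18 and SUDS3 also fell there, at -0.68 and -0.62. After growth adjustment 8 of the 15 were called lower and 1 higher under erlotinib, beside 9.27% and 3.68% of all genes. SIN3A (-0.32, adjusted p = 0.00286) and SIN3B (-0.24, adjusted p = 0.0225) were among the lower. Under osimertinib 6 were called lower and 1 higher, beside 4.43% and 4.64%.

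MNT and MXI1, which deliver SIN3-HDAC to DNA, were not called under either drug relative to untreated. Of the 7 remaining family members (MYCN, MYCL, MXD1, MXD3, MXD4, MLXIP and MLXIPL), 0 were called under either drug relative to untreated, with medians of 0.01 and 0.10. MLXIP and MLXIPL encode MondoA and ChREBP, the partners of MLX, and of 2 genes that MondoA with MLX activates, 0 were called in the same comparisons. For MGA, of 9 tested genes of PRC1.6, 1 was called lower under each drug, TFDP2 under erlotinib (-0.24 ± 0.12) and RNF2, a ubiquitin ligase subunit of Polycomb complexes, under osimertinib (-0.40 ± 0.10), with list medians of 0.02 and 0.0005. Both are named after their values were seen. The remaining tested genes of PRC1.6, not called under either drug, lay between 0.01 and 0.19 under erlotinib. Under osimertinib they lay between -0.10 and 0.21. Of all genes, 4.59% were called lower and 6.26% higher under erlotinib, and 4.71% and 4.58% under osimertinib. With so few genes per list these counts tell little beside those shares. Whether the fall of MGA was shared by its complex was not tested.

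By distance over the 8 libraries, the pattern of FBXW7 was nearest to EP300, an acetyltransferase, CSNK2A1, a casein kinase catalytic subunit, and RALGAPB, a subunit of a GTPase activator of RAL. Group means under erlotinib, osimertinib and untreated were 0.17, 0.44 and -0.06 for EP300, 0.06, 0.33 and -0.06 for CSNK2A1, and 0.26, 0.61 and -0.06 for RALGAPB, beside 0.12, 0.50 and -0.03 for FBXW7. Distances were 0.26 to 0.30 in log2 units, where the median gene was 1.07 away. For MYC the nearest were ABT1, CAPZB and PABPN1 (0.16 to 0.22, median gene 1.56), and for MGA they were PIP4K2B, DPPA2 and UNC119 (0.14 to 0.16, median gene 0.65). For MAX, MNT, MXI1 and MLX the nearest genes were within 0.10 and median genes within 0.43, so that many genes had a like pattern.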

How the data were processed

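The deposited table holds counts of reads for each guide, as the authors made them by matching reads to the library with 1 mismatch allowed, and is not normalized. Per the labels and methods, guides were amplified from genomic DNA by 2 rounds of PCR, and no molecular identifiers are mentioned, so reads are not independent molecules. The methods name Bowtie2 as the aligner and the submitters' processing notes name Bowtie 1.3.1. A further osimertinib dose was not analysed here.

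From 71090 guides (142 non-targeting), 4 whose gene name a spreadsheet had altered beyond repair were left out, then the lowest 5% by mean normalized count (under 45.8 reads), leaving 67531 guides, 138 non-targeting. All 8 libraries were fitted together with edgeR 4.0.16 (R 4.3.3; TMM scaling, quasi-likelihood F-test per guide, 4 residual degrees of freedom). Guide L2FC was collapsed to the median per gene (at least 2 guides) minus the non-targeting median. A two-sided empirical p came from 10000 draws of non-targeting guides, the smallest possible being 0.0001, and was adjusted over 17761 genes (Benjamini-Hochberg, threshold 0.05). Growth adjustment used factors of 0.782 (erlotinib) and 1.012 (osimertinib) from 145 core essential genes. Per-library abundance is log2 CPM (prior count 1) minus the guide's T0 mean and the non-targeting median. Alternatives used DESeq2 1.42.0, limma 3.58.1, other filters and reference guides, and subtraction of the 20 nearest genes, ordered by RefSeq.

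Per the labels cells were infected in duplicate, and the study calls the libraries biological replicates. Which libraries share an infection is not stated, and p-values measure the spread between these libraries or guides. The methods give the number of infected cells per treatment condition, so the drug and DMSO arms may come from separate infections. If so, infection and drug cannot be told apart here. The genes, lists and tests were chosen with earlier results of these data known. Named genes were the 7 members, EGFR, from each list up to 3 called in the same direction under both drugs and up to 3 lowest in untreated relative to T0 (against all targeting guides), and the 3 nearest genes of each member. The scripts were tested on simulated data. No guide sequence is printed.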

Additional observations from a re-analysis of the deposited data

Results flagged for a closer look

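The L2FC of FBXW7 differed between the 2 drugs when they were compared directly, at -0.36 for erlotinib relative to osimertinib (adjusted p = 0.00871), with all 4 guides below 0. The doses differ, at 10 µM and 0.1 µM, so drug and dose cannot be told apart, and the difference was lost without osimertinib replicate 1 (-0.28, adjusted p = 0.211).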

How the results depend on the processing

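Of the comparisons of the 7 genes, 490 gave the same call and direction in settings that kept all libraries. A further 57 kept the direction and lost the call, 9 kept the direction and gained it, and 38 turned direction. Those that turned direction are counted whether or not their call also changed. With 1 library left out the numbers were 204, 25, 2 and 21. Fits with the replicate number as a replicate block gave the same 4 calls in untreated relative to T0 and 2 for each drug relative to untreated (FBXW7 under osimertinib 0.48), and changed no other call. The differences between same-numbered libraries of any pair of groups were correlated by -0.003 to 0.01, so the numbers were not taken as pairs.

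The reference guides mattered most for the number of the 7 genes called. With all targeting guides as reference it was 0 in untreated relative to T0, 0 for erlotinib and 1 for osimertinib relative to untreated, 0 and 1 relative to T0, 0 between the drugs, and 0 and 1 after growth adjustment. Those guides called 254 genes higher and 119 lower for erlotinib relative to untreated, 115 and 147 for osimertinib, and 573 lower in untreated relative to T0, beside 1111, 816, 813, 837 and 11740 with non-targeting guides. With olfactory receptor guides the numbers of the 7 genes were 1 in untreated relative to T0, 0 for erlotinib and 1 for osimertinib relative to untreated, 2 and 2 relative to T0, and 1 and 1 after growth adjustment, and 1742 genes were lower in untreated relative to T0. After subtracting the 20 nearest genes they were 2 in untreated relative to T0, 2 for osimertinib relative to T0, 2 between the drugs and 2 for growth-adjusted erlotinib. With limma they were 1 in untreated relative to T0, 1 for erlotinib relative to untreated and 0 between the drugs. With the mean over guides they were 1 for osimertinib relative to untreated and 1 after growth adjustment. DESeq2 fold changes gave 2 between the drugs, as did no filter on low guides, both adding MYC. With 1 library left out, the numbers lay between 2 and 4 in untreated relative to T0, 0 and 2 for erlotinib and 1 and 2 for osimertinib relative to untreated, 0 and 2 between the drugs, and 2 and 5 (erlotinib) and 1 and 2 (osimertinib) after growth adjustment. The count of 0 for erlotinib came without erlotinib replicate 2 or untreated replicate 2, and that of 0 between the drugs without osimertinib replicate 1. The cause of these changes was not tested.

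Directions turned mostly in values near 0. In untreated relative to T0, all targeting guides gave 0.013 for MAX, 0.098 for MGA, 0.082 for MNT, 0.0044 for MXI1 and 0.17 for FBXW7, olfactory receptor guides gave 0.0475 for MGA, 0.032 for MNT and 0.11 for FBXW7, and subtraction of nearest genes gave 0.048 for MAX, 0.20 for MGA (adjusted p = 0.00656), 0.075 for MNT, 0.031 for MXI1 and 0.083 for FBXW7. Leaving out the lowest 10% of guides gave 0.082 for FBXW7 there and -0.020 for MXI1 between the drugs. For erlotinib relative to T0, MNT and MXI1 were at 0.12 and 0.12 with all targeting guides and 0.10 and 0.10 with olfactory receptor guides. After subtraction they were at 0.19 (adjusted p = 0.048) and 0.11, where MAX was at 0.012. For osimertinib relative to T0, MNT was at 0.13, 0.10 and 0.13 in the same settings and 0.0022 with limma, and MLX was at 0.046 after subtraction. Without a filter MNT was at -0.041 for erlotinib and -0.0028 for osimertinib relative to untreated, 0.037 and 0.076 relative to T0, and -0.061 and -0.0033 after growth adjustment. For osimertinib relative to untreated MXI1 was at -0.19 with the mean over guides (-0.19 after growth adjustment) and -0.0074 with limma, and for erlotinib it was at -0.011 after subtraction. Between the drugs limma gave 0.0033 for MLX.

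With 1 library left out, FBXW7 lay between -0.12 and 0.062 in untreated relative to T0 and MYC between -0.0014 and 0.30 for osimertinib relative to untreated. Between the drugs MAX lay between -0.078 and 0.026, MGA between -0.14 and 0.013, MNT between -0.091 and 0.018 and MXI1 between -0.048 and 0.15. MNT lay between -0.12 and 0.060 (erlotinib) and -0.095 and 0.066 (osimertinib) relative to T0 and between -0.0008 and 0.093 for growth-adjusted erlotinib. MXI1 lay between -0.12 and 0.056 for erlotinib relative to T0, -0.10 and 0.16 (erlotinib) and -0.032 and 0.12 (osimertinib) relative to untreated, and -0.11 and 0.12 and -0.023 and 0.13 after growth adjustment. Leaving out the lowest 10% of guides left MYC with too few guides for a value.

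The 3 or 4 guides per gene and 2 libraries per group limit these values, and the low reads of MYC guides add to its error.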
